A study of Rattus norvegicus with 23 samples.

Results

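The immediate early genes described here number 10, and they were followed over 23 arrays of rat liver cells. They are Fos, Fosb, Fosl1, Jun, Junb, Jund, Egr1, Atf3, Ier2 and Ier3. The genes were taken by name, with every probe set that the array annotation assigns to 1 of these genes alone, which gave 15 probe sets for 10 of the 14218 genes measured. Where a gene had several probe sets, the one with the highest mean was kept, and the 5 other probe sets, of Fos, Jun and Jund, are given beside it. The genes were selected on their measured levels in cell fractions separated with magnetic beads against the hepatocyte cultures, so the differences between these fractions and hepatocytes are given here as a description and without a test.

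The 8 groups were as follows. LSECs, the fenestrated endothelial cells of the liver sinusoid, came from the 3D model with hepatocytes, LSECs and KCs (3DHLK, 3 arrays) and from the 3D model with hepatocytes and LSECs (3DHL, 3 arrays). KCs, the resident macrophages of the liver, came from the 3DHLK model (2 arrays, the only KC samples of this model that met the RNA quality criterion) and from KC monolayers (3 arrays). Hepatocytes came from the 3DHLK model, the 3DHL model, the collagen sandwich (CS) and the hepatocyte monolayer (HM), with 3 arrays each. All groups were sampled at day 12 except the KC monolayers, sampled at day 3. In the 3D models a polymer membrane lay between the hepatocytes and the other cells, and the LSEC and KC fractions were collected on beads with SE-1 and CD163 antibodies, while CS and HM hold hepatocytes only and needed no separation. Hepatocytes and, from the same isolation, LSECs came from female Lewis rats. KCs were cryopreserved primary rat cells from a supplier, so comparisons of KCs with other cells also differ in cell source. The sample labels do not say that the replicates of a group came from separate animals, so p-values measure the spread between these arrays, which may be technical.

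Immediate early genes are transcribed within minutes of a stimulus without new protein synthesis. Fos and Jun proteins pair through leucine zippers to form AP-1, which binds the TPA response element, and Jun also pairs with ATF proteins on the cAMP response element (CRE). Egr1 is a zinc finger factor that binds GC-rich sites, and its own gene, like Fos, is switched on by the serum response factor through CArG boxes. In the liver these genes are known for their rapid induction after loss of liver tissue and in stress and inflammation.

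The table of promoters used here holds 6 of the 10 genes: Fosb, Fosl1, Junb, Jund, Egr1 and Ier2. The 250 bases before the start of Egr1, Ier2 and Jund are shown (RefSeq, GRCr8), because these 3 hold a complete CArG box, CRE or EGR motif. Capitals mark the motifs, which were searched on both strands. A match is a description of the letters and not an observed binding site.

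Egr1: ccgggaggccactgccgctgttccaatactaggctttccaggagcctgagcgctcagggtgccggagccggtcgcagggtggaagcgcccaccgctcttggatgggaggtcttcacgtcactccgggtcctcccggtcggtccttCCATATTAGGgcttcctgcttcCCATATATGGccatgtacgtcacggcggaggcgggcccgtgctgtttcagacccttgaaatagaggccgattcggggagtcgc
Ier2: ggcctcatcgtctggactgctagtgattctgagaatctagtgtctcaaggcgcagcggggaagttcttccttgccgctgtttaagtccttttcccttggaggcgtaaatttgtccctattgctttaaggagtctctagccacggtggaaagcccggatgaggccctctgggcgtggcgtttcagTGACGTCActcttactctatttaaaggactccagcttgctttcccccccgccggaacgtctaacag
Jund: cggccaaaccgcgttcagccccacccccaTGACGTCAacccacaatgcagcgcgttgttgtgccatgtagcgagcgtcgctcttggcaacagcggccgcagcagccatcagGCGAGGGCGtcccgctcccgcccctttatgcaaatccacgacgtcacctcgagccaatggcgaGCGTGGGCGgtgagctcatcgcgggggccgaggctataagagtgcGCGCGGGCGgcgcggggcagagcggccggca

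The Egr1 stretch (chr18:26736828-26737077, plus strand) held 2 CArG boxes, 105 to 96 and 83 to 74 bases before the start of the gene. A CArG box was found in 1.5% of 27456 rat promoters of this length, and Egr1 was the only 1 of the 6 genes with it. The Ier2 stretch (chr19:40399123-40399372, plus strand) held the CRE TGACGTCA 66 to 59 bases before the start, and the Jund stretch (chr16:18769772-18770021, minus strand) held it 221 to 214 bases before the start. This CRE was found in 1.7% of promoters. Jund also held 3 matches to the EGR motif GCGNGGGCG, which was found in 4.53% of promoters. The short form TGACG, which overlaps the CRE, was found in 5 of the 6 genes and in 19% of promoters. TATAAA was found in 2 of the 6 (Fosb and Junb) and in 13.1%. The TPA response element TGANTCA was found in 0 of the 6 and in 6.36%. The Fosb stretch (chr1:88089185-88089434, minus strand) lay inside the span of the Fosb gene (88082324 to 88089506). Its matches and absences therefore do not describe bases before that span.

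The deposited values are log2 expression values after RMA, with medians per array between 7.41 and 7.53. The interquartile range per array was 3.13 to 3.38 in the hepatocyte groups and 2.94 to 3.11 in the LSEC fractions. It was 2.71 and 2.94 in the KC fraction and 2.35 to 2.90 in KC monolayers. The labelled cell types were checked against marker genes before the members were read. The 26 measured hepatocyte markers averaged 12.88 and 12.6 in the LSEC fractions of the 3DHLK and 3DHL models and 11.93 in the KC fraction, between 12.28 and 13.07 in the 4 hepatocyte groups, and 7.50 ± 0.34 in KC monolayers. The albumin gene Alb averaged 14.53, 14.51 and 14.38 in these 3 bead fractions and 14.49 to 14.57 in hepatocytes. The endothelial markers (23 measured) averaged 6.46 and 6.33 in the LSEC fractions, against 6.23 to 6.76 in the hepatocyte groups, with Stab2 at 5.98 and 5.85 against 5.46 to 5.87 and Pecam1 at 6.19 and 5.99 against 5.94 to 6.50. The macrophage markers (19 measured) averaged 6.98 in the KC fraction and 12.11 in KC monolayers, with Adgre1 at 5.38 against 12.91 and Cd163 at 7.15 against 10.63. The LSEC fractions therefore carried hepatocyte markers above the level in hepatocytes of the same model (12.47 in 3DHLK and 12.28 in 3DHL). The KC fraction lay somewhat below the hepatocyte groups. In these bead fractions the markers of the labelled cell type did not stand clear of the hepatocyte groups. The bead fractions are called the LSEC and KC fractions here. In such bulk samples, fewer cells of a type and less RNA per cell cannot be told apart.

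The members did not follow 1 pattern. Jun, Junb, Egr1, Atf3, Ier2 and Ier3 had their highest group mean in the LSEC fraction of the 3DHLK model, Fosl1 and Jund in the KC fraction, Fos in CS and Fosb in KC monolayers. The lowest group was KC monolayers for 7 members, hepatocytes of the 3DHL model for Fos and Fosb, and hepatocytes of the 3DHLK model for Junb. The spread over the 8 group means was 4.84 on the log2 scale for Fos, 4.09 for Fosl1 and 3.27 for Fosb, and between 1.18 and 2.65 for the other 7.

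**Figure D1:**
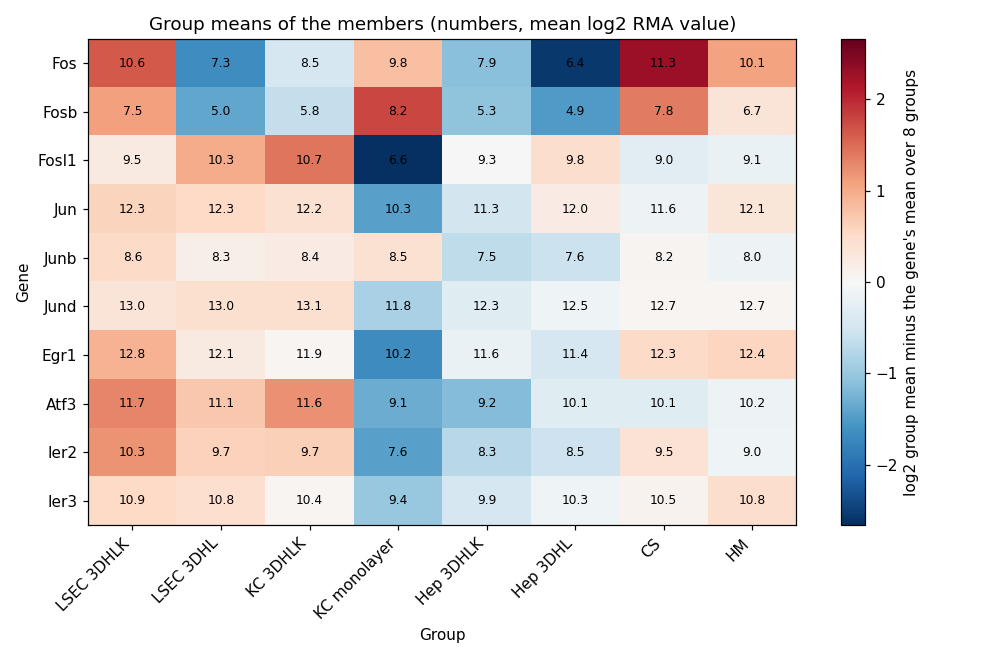
Group means of the 10 members. Rows are genes and columns the 8 groups, each cell prints the mean log2 RMA value (n = 3 arrays, n = 2 for the KC fraction of 3DHLK), and the colour gives that mean minus the mean of the gene's 8 group means. Fos and Fosb are red in the LSEC fraction of 3DHLK, KC monolayers, CS and HM, while 7 of the other genes are lowest in KC monolayers.

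Fos, the best known partner of Jun in AP-1, varied most. Its log2 values were 10.50, 10.66 and 10.74 in the LSEC fraction of the 3DHLK model and 7.20, 7.53 and 7.29 in that of the 3DHL model. The KC fraction had 8.78 and 8.28, and KC monolayers had 10.23, 9.45 and 9.71. Hepatocytes of the 3DHLK model had 7.41, 8.04 and 8.16, those of the 3DHL model 5.83, 6.69 and 6.75, CS 11.09, 11.17 and 11.54, and HM 10.07, 9.98 and 10.09. Both the high and the low end of Fos thus lay among the hepatocyte cultures, and the LSEC fraction of 3DHLK was below CS and above HM with no overlap. Of neighbours in the order of means, HM and KC monolayers overlapped, as did 3DHLK hepatocytes and the LSEC fraction of 3DHL.

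Fosb, which pairs with Jun proteins as Fos does, gave 7.41, 7.32 and 7.71 in the LSEC fraction of 3DHLK and 4.88, 4.92 and 5.22 in that of 3DHL. The KC fraction had 6.29 and 5.23 and KC monolayers 8.61, 7.50 and 8.38. Hepatocytes had 4.56, 5.90 and 5.52 in 3DHLK, 4.43, 5.65 and 4.60 in 3DHL, 8.17, 7.14 and 8.04 in CS and 6.66, 6.82 and 6.69 in HM. The 4 lowest groups overlapped one after another, and so did the 3 highest. Over the 23 arrays Fos and Fosb had a Pearson r of 0.89, and of 0.95 over the 20 arrays without KC monolayers. These points share the groups and 1 normalization, so this is a description.

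Fosl1 (Fra-1), a Fos family member without the transactivation domain of Fos, ran differently. It had 9.63, 9.54 and 9.39 in the LSEC fraction of 3DHLK, and 10.31, 10.24 and 10.29 in that of 3DHL. The KC fraction had 10.93 and 10.51, and KC monolayers 7.08, 6.41 and 6.39. In hepatocytes it had 9.28, 9.15 and 9.48 (3DHLK), 9.61, 10.05 and 9.60 (3DHL), 9.27, 8.91 and 8.84 (CS) and 8.94, 9.43 and 8.98 (HM). The KC fraction of 3DHLK and KC monolayers were the 2 ends of its range, with a fold difference of 17.1. The correlation of Fosl1 with Fos was -0.40 over 23 arrays and -0.52 without KC monolayers.

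Jun, the AP-1 subunit that can bind DNA as a homodimer or with Fos, varied less among cultures of day 12. Its values were 12.37, 12.26 and 12.39 in the LSEC fraction of 3DHLK, 12.27, 12.32 and 12.29 in that of 3DHL, and 12.33 and 11.98 in the KC fraction. KC monolayers had 10.69, 9.95 and 10.27. Hepatocytes had 11.13, 11.27 and 11.40 in 3DHLK, 11.93, 12.14 and 11.84 in 3DHL, 11.93, 11.45 and 11.51 in CS and 12.14, 11.91 and 12.19 in HM. The 6 highest groups overlapped one after another, and hepatocytes of 3DHLK and KC monolayers lay below them.

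Junb, a weaker activator that can counteract Jun, averaged 8.65 ± 0.07 (SD, n = 3) in the LSEC fraction of 3DHLK, 8.30 ± 0.03 in that of 3DHL, 8.35 ± 0.25 in the KC fraction (n = 2) and 8.55 ± 0.09 in KC monolayers. It averaged 7.47 ± 0.17 in 3DHLK hepatocytes, 7.57 ± 0.12 in 3DHL hepatocytes, 8.21 ± 0.05 in CS and 8.01 ± 0.09 in HM (n = 3 each). Junb was the only member besides Fos and Fosb that was not lowest in KC monolayers. Jund, the Jun family member that many resting cells express, averaged 12.97 ± 0.07, 13.04 ± 0.22 and 13.06 ± 0.14 in the LSEC fractions of 3DHLK and 3DHL and the KC fraction, 11.77 ± 0.21 in KC monolayers, and 12.3 ± 0.11, 12.5 ± 0.06, 12.67 ± 0.02 and 12.68 ± 0.05 in hepatocytes of 3DHLK, 3DHL, CS and HM. Its 8 bead arrays ranged from 12.82 to 13.27 and its 12 hepatocyte arrays from 12.21 to 12.74, with no overlap.

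Egr1, whose CArG boxes are shown above, had 12.70, 12.80 and 12.77 in the LSEC fraction of 3DHLK and 12.05, 12.08 and 12.10 in that of 3DHL. The KC fraction had 11.92 and 11.84 and KC monolayers 10.82, 9.71 and 9.95. Hepatocytes had 11.57, 11.66 and 11.68 in 3DHLK, 11.00, 11.84 and 11.27 in 3DHL, 12.30, 12.20 and 12.52 in CS and 12.27, 12.44 and 12.47 in HM. The LSEC fraction of 3DHLK lay above every other group, and CS and HM lay above the LSEC fraction of 3DHL. Without KC monolayers Egr1 correlated with Fos (r = 0.83 over 20 arrays, against 0.32 over 23), since the KC monolayers were high in Fos and low in Egr1.

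Atf3, a CREB/ATF family factor induced by stress, separated the bead fractions from hepatocytes most widely. It had 11.61, 11.73 and 11.72 in the LSEC fraction of 3DHLK, 11.30, 11.12 and 10.91 in that of 3DHL and 11.50 and 11.72 in the KC fraction. KC monolayers had 9.59, 8.85 and 8.75. Hepatocytes had 9.28, 9.08 and 9.36 in 3DHLK, 9.81, 10.42 and 9.997 in 3DHL, 9.78, 10.16 and 10.26 in CS and 10.31, 10.13 and 10.31 in HM. The lowest of the 8 bead arrays (10.91) was above the highest of the 12 hepatocyte arrays (10.42), and KC monolayers lay with the hepatocytes of 3DHLK.

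Ier2, a nuclear protein named for its immediate early induction, had 10.10, 10.27 and 10.43 in the LSEC fraction of 3DHLK, 9.61, 9.79 and 9.66 in that of 3DHL and 9.91 and 9.48 in the KC fraction. KC monolayers had 7.66, 7.29 and 7.88. Hepatocytes had 8.26, 8.41 and 8.34 in 3DHLK, 8.55, 8.64 and 8.38 in 3DHL, 9.48, 9.58 and 9.33 in CS and 9.16, 8.69 and 9.03 in HM. The lowest KC fraction array and CS overlapped, so the bead and hepatocyte arrays were not fully apart. Ier3 (IEX-1), a regulator of cell survival, averaged 10.91 ± 0.06 (SD, n = 3) and 10.82 ± 0.08 (n = 3) in the LSEC fractions of 3DHLK and 3DHL, 10.44 ± 0.18 (n = 2) in the KC fraction and 9.37 ± 0.39 in KC monolayers, against 9.94 ± 0.26, 10.26 ± 0.04, 10.48 ± 0.09 and 10.85 ± 0.13 (n = 3 each) in hepatocytes of 3DHLK, 3DHL, CS and HM. HM overlapped both LSEC fractions for Ier3.

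**Figure D2:**
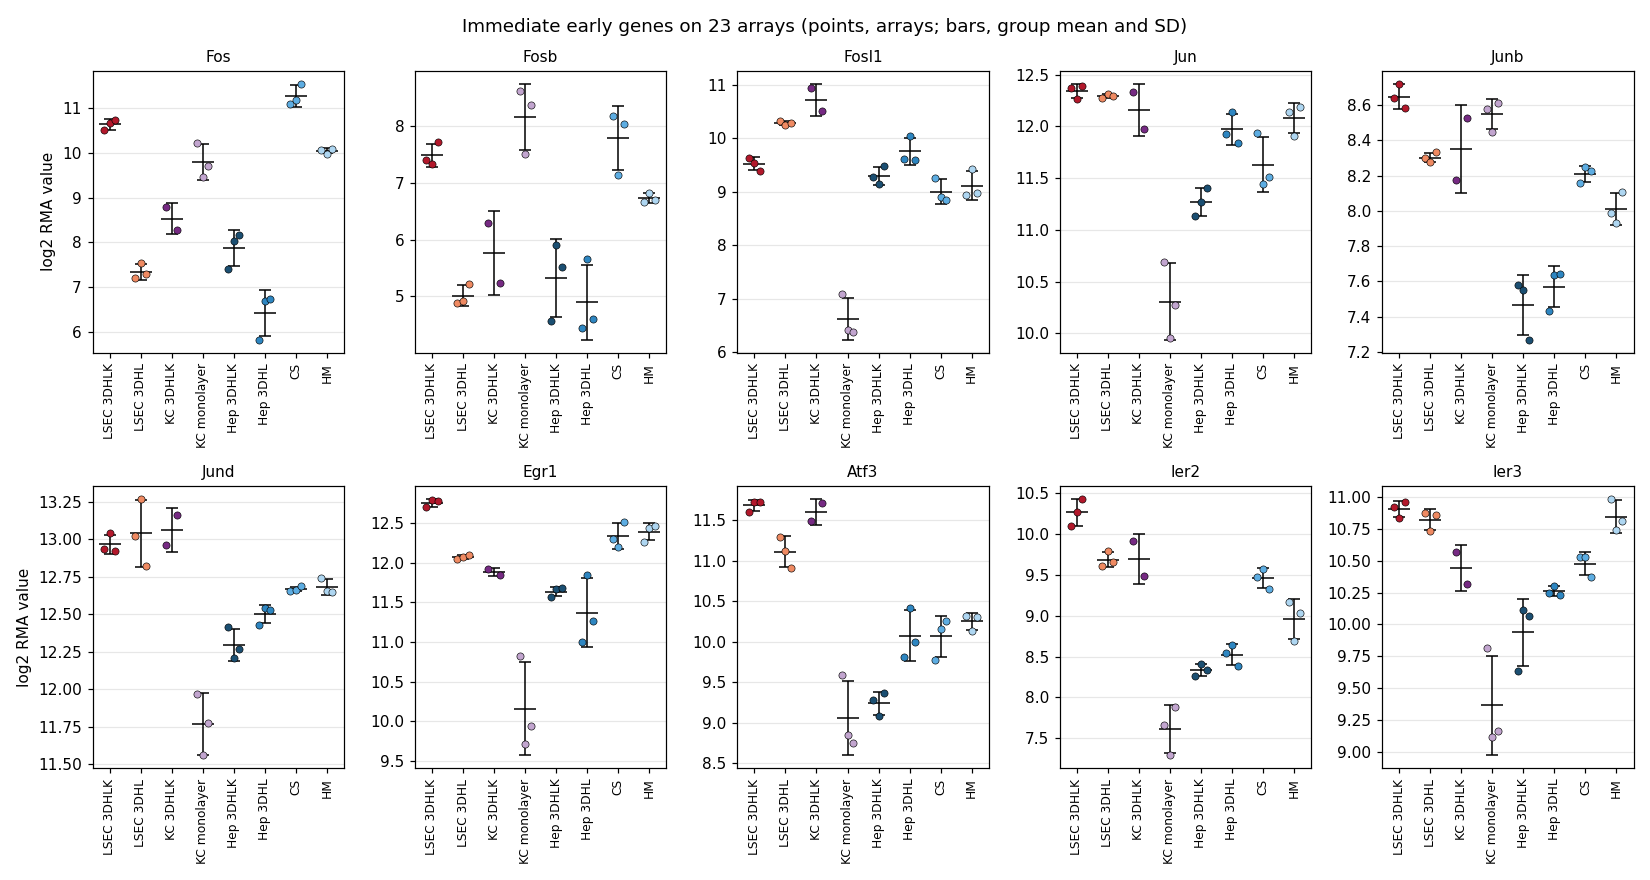
Log2 RMA values of the 10 members. Each panel is 1 gene with its own vertical axis, points are arrays, horizontal bars and whiskers are the group mean and SD (n = 3, n = 2 for the KC fraction of 3DHLK). In the Atf3 and Jund panels all 8 LSEC and KC fraction arrays lie above all 12 hepatocyte arrays, and in the Fos panel 3DHL hepatocytes (5.83 to 6.75) are lowest and CS (11.09 to 11.54) is highest.

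Over all 8 bead arrays against all 12 hepatocyte arrays, the mean of the bead group means was higher for 8 of the 10 members, by 1.56 on the log2 scale for Atf3, 1.06 for Ier2, 0.88 for Fosl1, 0.62 for Junb, 0.53 for Jun, 0.49 for Jund, 0.34 for Ier3 and 0.30 for Egr1. It differed by -0.07 for Fos and -0.10 for Fosb. Atf3 and Jund were higher with no overlap between arrays (2 of 10), and 0 members were lower with no overlap. Over all genes 7.48% were higher and 5.67% lower by the same measure. With each array set to the same mean of housekeeping genes, only Atf3 had no overlap, and without the second KC fraction array 4 members had none.

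Within a 3D model, where hepatocytes and bead fractions come from the same kind of culture, the arrays were apart for more members. In the 3DHLK model 9 of 10 members were higher in the LSEC fraction than in hepatocytes with no overlap (all but Fosl1) and 0 were lower, while 41.4% of all genes were higher and 30.5% lower. The log2 differences were 2.76 for Fos, 2.45 for Atf3, 2.16 for Fosb, 1.93 for Ier2, 1.18 for Junb, 1.12 for Egr1, 1.08 for Jun, 0.97 for Ier3, 0.67 for Jund and 0.22 for Fosl1. In the 3DHL model 9 of 10 were higher in the LSEC fraction with no overlap (all but Fosb) and 0 were lower, against 33.4% and 32.9% of all genes, and here the widest differences were 1.16 for Ier2, 1.03 for Atf3 and 0.92 for Fos. The KC fraction of 3DHLK was higher than 3DHLK hepatocytes with no overlap for 9 of 10 (all but Fosb) and lower for 0, against 39.8% and 32.6% of all genes, by 2.37 for Atf3, 1.42 for Fosl1 and 1.36 for Ier2. Since the members were picked for such differences, nothing is read from these counts.

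Marker genes of other cells moved between the same groups. Averaged over 18 genes, markers of stellate cells and fibroblasts were at 6.54 ± 0.20 in the LSEC fraction and 6.83 ± 0.03 in the KC fraction of 3DHLK, against 10.5 ± 0.13 in 3DHLK hepatocytes, and 6.62 ± 0.06 in the LSEC fraction against 8.50 ± 0.26 in hepatocytes of 3DHL. The ranges over arrays were 6.32 to 6.71, 6.81 to 6.85, 10.4 to 10.65, 6.55 to 6.67 and 8.29 to 8.79. Macrophage markers averaged 6.90 in the LSEC fraction and 6.98 in the KC fraction of 3DHLK, against 7.70 in 3DHLK hepatocytes. The 6 cholangiocyte markers averaged 7.58 and 7.51 in these fractions against 9.22 in 3DHLK hepatocytes, and 7.09 in the LSEC fraction against 8.96 in hepatocytes of 3DHL (5 of 6 called lower each time). Hepatocyte markers were called higher for 12 of 26 and lower for 2 in the LSEC fraction against hepatocytes of 3DHLK. Lymphocyte markers were called higher for 9 of 11 and lower for 1 there, and for 8 and 1 in the KC fraction. Erythroid markers were called higher for 4 of 4 in both. Endothelial markers were called higher for 11 of 23 and lower for 6, and for 16 and 6 in the KC fraction. Over all genes 34.7% were called higher and 25.7% lower, and 30.6% and 25.9% in the KC fraction. The part of these markers in the differences of the members was not tested.

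The KC fraction of the 3DHLK model was also set against KC monolayers, which differ in day as well as culture. The paper describes bead separation for the 3D models only. Day, culture, separation and the cells present therefore cannot be told apart here. The KC fraction was higher with no overlap for 7 members (43.8% of all genes) and lower for 2 (20.7%), Fos by 1.26 and Fosb by 2.40 on the log2 scale. The other differences were 4.09 for Fosl1, 2.55 for Atf3, 2.08 for Ier2, 1.85 for Jun, 1.72 for Egr1, 1.29 for Jund, 1.08 for Ier3 and -0.19 for Junb. With arrays set to the same mean of housekeeping genes, which lay at 11.9 in the KC fraction against 11.4, each difference was lower, for example 3.59 for Fosl1 and -0.70 for Junb, and no member changed sign. That scaling also turned the balance of all genes: limma called 44.5% higher and 20.8% lower with the deposited values, 23.1% higher and 39.5% lower with housekeeping centring, and 32.4% and 30.9% with cyclic loess, where the median of all genes was 0.27, -0.23 and 0.04. Hepatocyte markers averaged 11.93 in the KC fraction and were low in KC monolayers (7.11 to 7.72), with 25 of 26 called higher. Macrophage markers averaged 6.98 in the KC fraction and 12.11 in KC monolayers, with 19 of 19 called lower. The part of these markers was not tested.

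Comparisons among LSEC fractions, among hepatocyte cultures and between the KC and LSEC fractions were tested with limma. Adjusted p-values were taken over all 14218 genes, with a threshold of 0.05. The members were chosen with earlier results of these data known, so independence of these comparisons from that choice is not shown. Some of these comparisons share arrays. The first was the LSEC fraction of 3DHLK against that of 3DHL, which differ in the presence of KCs in the culture. Fos was higher by 3.30 on the log2 scale (standard error 0.23, 9.82-fold, adjusted p = 1.67e-08), Fosb by 2.47 (0.36, 5.56-fold, adjusted p = 1e-04), Ier2 by 0.58 (0.15, adjusted p = 0.0206) and Egr1 by 0.68 (0.21, adjusted p = 0.0461). Fosl1 was lower by 0.76 (0.18, adjusted p = 0.0115). In all 5 the 3 arrays of 1 group did not overlap the 3 of the other. So 4 of 10 members rose and 1 fell, while 3.58% of all genes rose and 3.89% fell (7.47% in all). The median of the 10 members was 0.46, against 0.04 over all genes. The second Fos probe set, described below, differed by 0.44 and was not called.

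Junb (0.35, adjusted p = 0.0659) and Atf3 (0.58, adjusted p = 0.0672) did not pass, although their arrays did not overlap either, and Jun (0.05), Jund (-0.07) and Ier3 (0.09) differed by less than their standard errors. The Egr1 call was the least firm, since it was lost in 18 of the 23 fits that left out 1 array, with an adjusted p of up to 0.139. Ier2 was lost without replicate 1 or 3 of the 3DHL group or replicate 2 or 3 of the 3DHLK group (up to 0.127), and Fosl1 without replicate 1 of 3DHL or replicate 3 of 3DHLK (up to 0.0678).

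For hepatocytes of 3DHLK against those of 3DHL, Fos rose by 1.45 (standard error 0.23, 2.73-fold, adjusted p = 0.000112 in limma). Jun fell by 0.70 (0.16, adjusted p = 0.00442) and Atf3 fell by 0.83 (0.19, adjusted p = 0.00406), both with no overlap. This was 1 of 10 higher and 2 of 10 lower, against 7.72% and 3.76% of all genes (11.5% in all). The other 7 were not called, with differences between -0.45 (Fosl1) and 0.43 (Fosb). The second Fos probe set had -0.21 and was not called. Stellate cell and fibroblast markers averaged 10.5 in 3DHLK hepatocytes and 8.50 in 3DHL hepatocytes (12 of 18 called higher), and 11 of 19 macrophage markers were called higher. Their part was not tested.

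The change between 3DHLK and 3DHL was also set between the LSEC fraction and hepatocytes. This interaction is the same number as the LSEC against hepatocyte difference in 3DHLK minus that in 3DHL, and such differences were used to pick the genes, so it is given as a description and without a test. It was 2.04 (standard error 0.51) for Fosb, 1.85 (0.33) for Fos, 1.41 (0.27) for Atf3, 0.76 (0.22) for Ier2 and 0.75 (0.23) for Jun, between 0.13 and 0.45 for Junb, Egr1, Ier3 and Jund, and -0.31 for Fosl1. For the kept Fos probe set both groups were higher in 3DHLK, the LSEC fraction by more. For Jun and Atf3 the called change was a fall in hepatocytes. The first 5 passed the limma threshold, as did 3.51% of all genes in this direction and 6.81% in the other (10.3% in all), and nothing is read from that count.

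**Figure D3:**
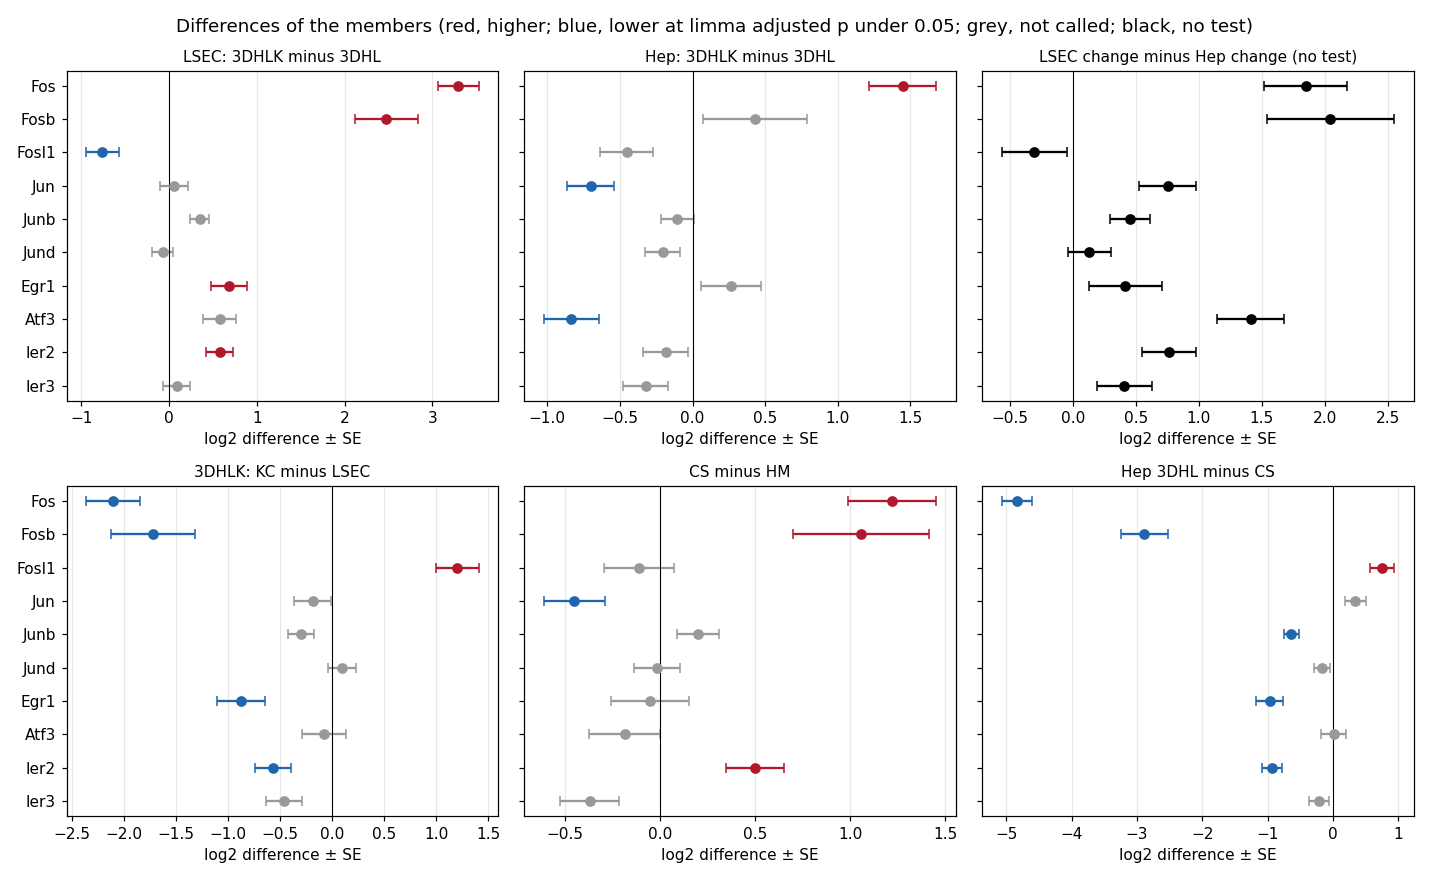
Log2 differences of the 10 members in 6 comparisons, each panel with its own horizontal axis. Points are limma estimates, whiskers their standard errors, red and blue mark higher and lower at an adjusted p under 0.05, grey marks no call, and black marks the interaction, given without a test. Fos and Fosb are at 1 end of the range in all 6 panels, with 3.30 and 2.47 for LSEC fractions and -4.84 and -2.89 for hepatocytes of 3DHL against CS.

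Within the 3DHLK model, in the KC fraction against the LSEC fraction, Fos fell by 2.10 (standard error 0.26, 4.29-fold, limma adjusted p = 4.1e-06), Fosb fell by 1.72 (0.40, adjusted p = 0.00414), Egr1 fell by 0.87 (0.23, adjusted p = 0.0109) and Ier2 fell by 0.57 (0.17, adjusted p = 0.0259). Fosl1 was higher by 1.20 (0.21, 2.3-fold, adjusted p = 0.000224). All 5 had no overlap, and they were 1 of 10 higher and 4 of 10 lower against 5.35% and 9.73% of all genes (15.1% in all). With 2 arrays in the KC fraction this comparison rests on few values. Without the second KC array 2 members were called, since Fosb (adjusted p = 0.154), Egr1 and Ier2 were lost. Egr1 was also lost without the first KC array, and Ier2 without replicate 2 or 3 of the LSEC fraction. Hepatocyte markers averaged 11.93 in the KC fraction and 12.88 in the LSEC fraction (18 of 26 called lower). Endothelial markers were higher in the KC fraction, at 6.90 against 6.46 in the LSEC fraction (10 of 23 called higher and 0 lower). Macrophage markers averaged 6.98 in the KC and 6.90 in the LSEC fraction (2 of 19 called higher and 1 lower). The part of these markers was not tested.

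Among hepatocyte cultures the largest change of any member was that of Fos. It was lower in hepatocytes of 3DHL than in CS by 4.84 on the log2 scale (standard error 0.23, 28.7-fold, limma adjusted p = 3.92e-12), and Fosb was lower by 2.89 (0.36, 7.42-fold, adjusted p = 3.82e-06). Egr1 fell by 0.97 (0.21, adjusted p = 0.00166), Ier2 fell by 0.94 (0.15, adjusted p = 0.000115) and Junb fell by 0.64 (0.11, adjusted p = 0.000266), while Fosl1 rose by 0.75 (0.18, adjusted p = 0.00531). These 6 calls held in every fit that left out 1 array. They were 5 of 10 lower and 1 of 10 higher, against 9.03% and 12.8% of all genes (21.8% in all). Hepatocyte markers averaged 12.28 in 3DHL hepatocytes and 13.07 in CS (14 of 26 called lower), and CS cells were not exposed to beads, so the culture and the separation cannot be told apart.

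CS also had higher Fos than HM, by 1.22 (standard error 0.23, 2.33-fold, limma adjusted p = 0.000497), higher Fosb by 1.06 (0.36, adjusted p = 0.0376) and higher Ier2 by 0.50 (0.15, adjusted p = 0.0223). Jun was lower by 0.45 (0.16, adjusted p = 0.049), although its arrays overlapped. The counts were 3 of 10 higher and 1 of 10 lower, against 11.1% and 10.7% of all genes (21.8% in all). The Jun call was lost in 17 of the 23 fits without 1 array (adjusted p up to 0.199). Fosb was lost without any 1 of the HM arrays or CS replicate 1 or 3 (up to 0.151), and Ier2 without HM replicate 2 or CS replicate 1 or 2 (also up to 0.151). Hepatocyte markers averaged 13.07 in CS and 12.57 in HM (11 of 26 called higher), stellate cell and fibroblast markers 8.67 and 7.89 (9 of 18 called higher) and cholangiocyte markers 8.63 and 9.54 (4 of 6 called lower), and their part was not tested. The Egr1 difference was -0.05 (standard error 0.21) and that of Jund -0.01 (0.12).

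The other probe sets of Fos, Jun and Jund did not always repeat the kept one. The second Fos probe set, 1371283_at, spanned less: 7.57, 7.58 and 7.76 in the LSEC fraction of 3DHLK against 7.21, 7.16 and 7.21 in that of 3DHL, a difference of 0.44 that was not called (limma adjusted p = 0.134 over all probe sets). For hepatocytes of 3DHL against CS it was called lower like the kept one, by 0.51 (adjusted p = 0.0356), which was its only call among the 5 comparisons tested. It was not called for the KC against the LSEC fraction (-0.33, adjusted p = 0.292) or for CS against HM (0.37, adjusted p = 0.139), where the kept probe set was. It ran the other way for the KC fraction against KC monolayers, at 1.25 against -1.26 for 1375043_at, and for hepatocytes of 3DHLK against 3DHL, at -0.21 against 1.45. For Fos in KCs the direction therefore depends on the probe set.

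Of the 3 Jun probe sets, 1374404_at (kept) and 1389528_s_at ran together. The remaining 1, 1369788_s_at, had 10.67, 10.34 and 10.59 in the LSEC fraction and 11.05, 10.92 and 11.04 in hepatocytes of 3DHLK, and 10.65, 10.56 and 10.75 in the LSEC fraction and 11.25, 11.48 and 11.49 in hepatocytes of 3DHL. It was thus lower in both LSEC fractions, by 0.47 and 0.75 on the log2 scale, where the other 2 were higher. In CS against HM it was called lower by 0.83 (limma adjusted p = 0.000441), while over all probe sets neither the kept one (adjusted p = 0.0527) nor 1389528_s_at (adjusted p = 0.0756) was called. The 3 Jund probe sets were all higher in the bead fractions than in hepatocytes of the same model. Of these, 1387762_s_at fell by 0.49 in 3DHLK against 3DHL hepatocytes (adjusted p = 0.0149), where the kept probe set had -0.20 and was not called.

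**Figure D4:**
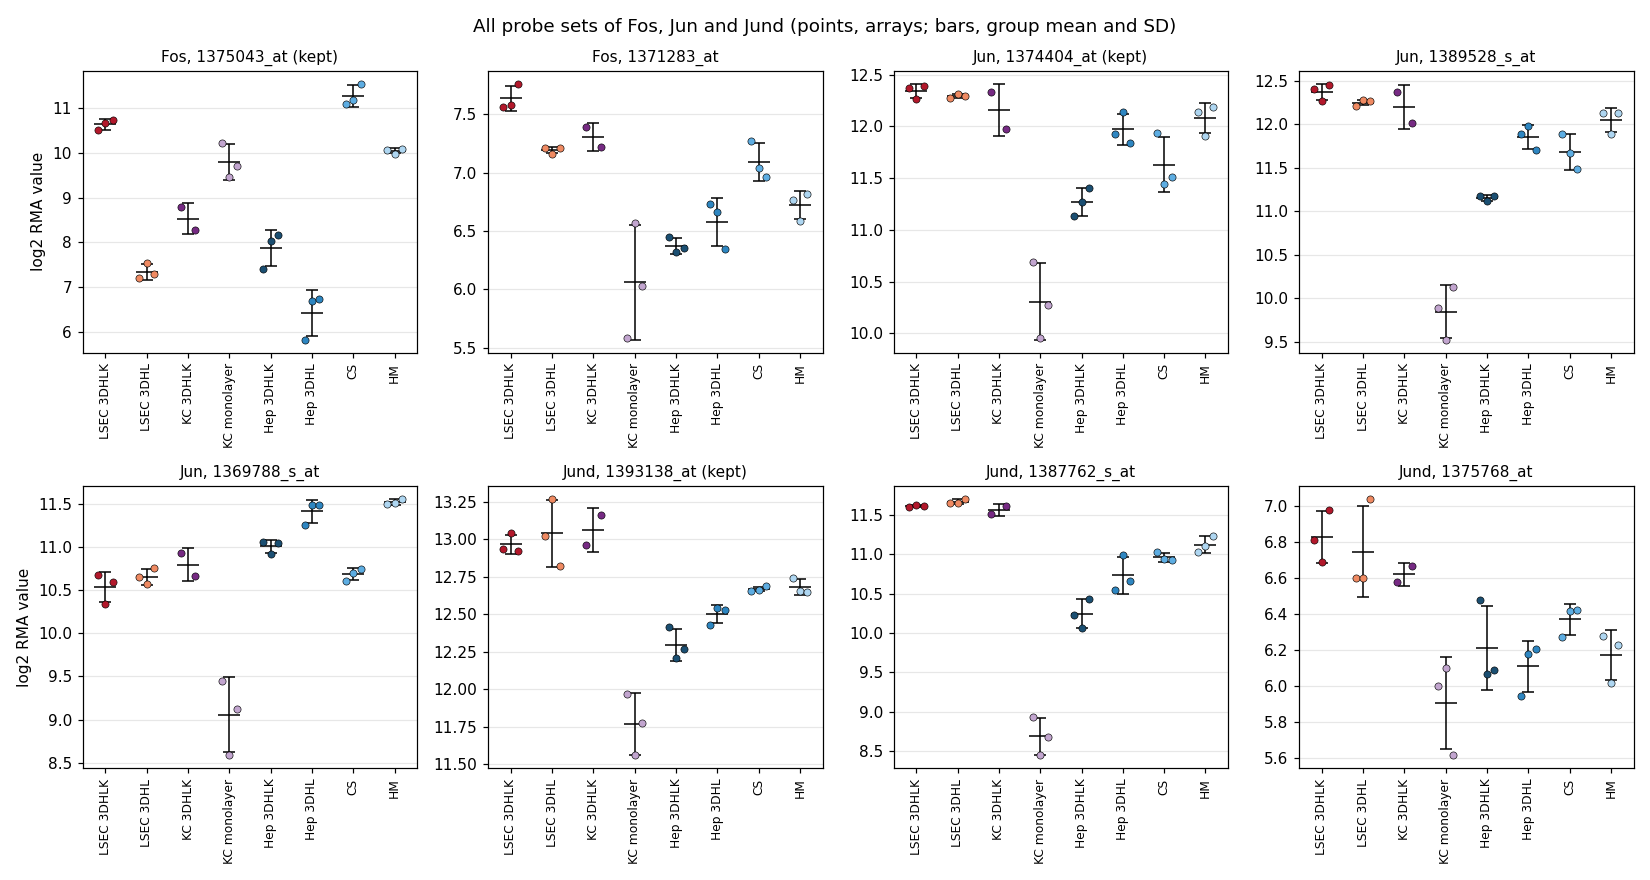
All probe sets of Fos (2), Jun (3) and Jund (3). Points are arrays, bars and whiskers the group mean and SD (n = 3, n = 2 for the KC fraction of 3DHLK), and each panel has its own vertical axis in log2 RMA units. KC monolayers are high in 1 Fos probe set (9.45 to 10.23) and low in the other (5.58 to 6.57), and in Jun 1369788_s_at the LSEC fractions lie below the hepatocytes of the 3D models.

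Other immediate early genes, a list of 51 written by hand with 50 measured, moved in both directions. In the LSEC fraction of 3DHLK against 3DHL 5 rose and 3 fell (3.58% and 3.89% of all genes), with a median of 0.01 against 0.04 over all genes. Egr2, a relative of Egr1, rose by 1.07 (standard error 0.25, limma adjusted p = 0.0102), the bZIP factor Maff by 0.63 (adjusted p = 0.0118) and Arc by 0.45 (adjusted p = 0.0405, but 0.128 with housekeeping centring and 0.0516 with trended and robust eBayes). The matricellular protein Ccn2 fell by 1.04 (adjusted p = 0.000972), the kinase Sgk1 by 0.82 (adjusted p = 0.000175) and Tnfaip3, an inhibitor of NF-κB signaling, by 0.76 (adjusted p = 0.00885). Genes that moved with Fos and genes that moved against it were thus both present.

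In hepatocytes of 3DHLK against 3DHL 5 of the list rose and 5 fell, against 7.72% and 3.76% of all genes (medians -0.03 and, over all genes, -0.08). Cebpd rose by 1.98 (limma adjusted p = 9.99e-08), Sgk1 by 1.42 and Nr4a3 by 0.81, while the phosphatase Dusp5 fell by 0.79, Gadd45b by 0.74 and the stress phosphatase subunit Ppp1r15a by 0.70. The change in the LSEC fraction minus that in hepatocytes was called for 7 genes of the list, 4 above and 3 below 0. Over all genes 3.51% were called above and 6.81% below 0. This difference of changes was above 0 for Egr2 (1.07 in the LSEC fraction and -0.18 in hepatocytes), Gadd45b (0.29 and -0.74) and Maff (0.63 and -0.16). It was below 0 for Cebpd (-0.36 in the LSEC fraction and 1.98 in hepatocytes), Sgk1 (-0.82 and 1.42) and Ccn2 (-1.04 and 0.19). Egr2 lost this call with housekeeping centring (limma adjusted p = 0.058). In the KC against the LSEC fraction 8 rose and 3 fell (5.35% and 9.73% of all genes). Ccn2 (1.19), Maff (0.99) and Ier5 (0.88) were higher, and the mRNA decay factor Zfp36 (-0.98), Sgk1 (-0.56) and Nfil3 (-0.44) were lower. Ier5 was at 0.21 and not called with the mean of its probe sets, and Nfil3 was lost with a replicate block (limma adjusted p = 0.0642).

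In CS against HM 5 rose and 8 fell (11.1% and 10.7% of all genes). The widest rises were those of Phlda1 (0.85), Nfkbia (0.68) and Cebpb (0.66), and the widest falls those of Fosl2 (-1.15), Zfp36l2 (-1.05) and Tnfaip3 (-0.81). In hepatocytes of 3DHL against CS 8 rose and 8 fell (12.8% and 9.03% of all genes). Fosl2, the fourth Fos family gene, was higher by 1.05 (limma adjusted p = 8.81e-05), as were Zfp36l2 (1.01) and Tnfaip3 (0.90). Nr4a1 fell by 0.96, Zfp36 by 0.93 and the MAP kinase phosphatase Dusp1 by 0.90. Within the Fos family, Fos and Fosb were thus lower and Fosl1 and Fosl2 higher in 3DHL hepatocytes than in CS.

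The rule that chose the members does not hold this list, but the list was written with earlier results of these data known, so its counts between bead fractions and hepatocytes are a description beside those of all genes. In 3DHLK 21 of 50 were higher and 10 lower in the LSEC fraction, against 34.7% and 25.7% of all genes (60.4% in all), with a median of 0.25 against 0.11. Trib1 (1.99), Dusp5 (1.58) and Gadd45a (1.56) were highest, and Cebpd (-2.22), Sgk1 (-2.19) and Ccn2 (-1.94) lowest. In 3DHL 16 were higher and 8 lower (18.5% and 21.9% of all genes, 40.4% in all), led by Phlda1 (1.79), Nfil3 (1.46) and Ccn1 (1.31) and by Egr2 (-1.42), Klf4 (-1.11) and Zfp36l2 (-0.99), the last of which was at 0.03 with the mean of its probe sets. The KC fraction had 22 higher and 5 lower than 3DHLK hepatocytes (30.6% and 25.9%, 56.5% in all), with Dusp5 (2.09), Trib1 (1.73) and Gadd45a (1.70) highest and Sgk1 (-2.75), Cebpd (-2.12) and Klf4 (-1.60) lowest. Against KC monolayers 27 were higher and 12 lower (44.5% and 20.8%, 65.3% in all), but 18 higher and 16 lower with housekeeping centring (23.1% and 39.5%) and 20 and 17 with cyclic loess (32.4% and 30.9%), with Myc (4.36), Errfi1 (4.06) and Dusp5 (3.73) higher and Ptgs2 (-5.81), Nr4a2 (-4.55) and Dusp2 (-3.09) lower.

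The factors that pair with Fos and Jun or share their sites (19 listed, 17 measured) had 2 higher and 1 lower in the LSEC fraction of 3DHLK against 3DHL, where 3.58% and 3.89% of all genes were. Batf rose by 0.69 (limma adjusted p = 0.0122) and Cebpa by 0.65, and Nfe2l2 fell by 0.39. In hepatocytes of 3DHLK against 3DHL only Ddit3 was called, with -0.55 (11.5% of all genes were called), and in hepatocytes of 3DHL against CS 1 was higher and 3 lower (12.8% and 9.03%). In 3DHLK 9 of 17 were higher in the LSEC fraction than in hepatocytes and 1 lower (34.7% and 25.7% of all genes), with the CREB family gene Crem at 1.02, Atf5 at 0.88 and Atf2 at 0.73, and in 3DHL 4 were higher and 3 lower (18.5% and 21.9%).

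Kinases and factors upstream of these genes (26 listed, 17 measured) had 1 call in the LSEC comparison (7.47% of all genes), the ETS factor Elk3, which fell by 1.46 (limma adjusted p = 0.000218). The median was -0.06, against 0.04 over all genes. Against hepatocytes the LSEC fraction had 4 of the list higher and 5 lower in 3DHLK (34.7% and 25.7% of all genes). In 3DHL 2 were higher and 7 lower (18.5% and 21.9%). The KC fraction had 4 higher and 7 lower than 3DHLK hepatocytes (30.6% and 25.9%). Srf, which binds the CArG box, and Elk1, which binds beside it, were higher in the LSEC fraction than in hepatocytes of both models, Elk1 by 1.36 and 0.92 and Srf by 0.85 and 0.92 in 3DHLK and 3DHL. Srf (1.07) and Elk1 (0.82) were also higher in the KC fraction than in hepatocytes. With the mean of its probe sets Elk1 was not called in the LSEC fraction of 3DHL (0.30, limma adjusted p = 0.189) or in the KC fraction (0.0037, adjusted p = 0.989). Elk3 was lower in the LSEC fraction, by 2.33 and 0.94.

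Known AP-1 target genes (24 listed, 23 measured) had 1 higher and 6 lower in the LSEC fraction of 3DHLK against 3DHL (3.58% and 3.89% of all genes), with a median of -0.00 against 0.04. The quinone reductase Nqo1 rose by 0.84 (limma adjusted p = 0.00198), the chemokines Ccl2 and Cxcl2 fell by 3.05 (adjusted p = 4.58e-06) and 1.42, and the cell cycle gene Ccnd1 fell by 1.21. In hepatocytes of 3DHLK against 3DHL 4 rose and 1 fell (7.72% and 3.76%), with Spp1 (2.84), Timp1 (1.80) and Ccl2 (1.33) higher and Lif (-0.78) lower. In hepatocytes of 3DHL against CS 3 rose and 3 fell (12.8% and 9.03%). Ccnd1 rose by 0.77, Plau by 0.72 and Nqo1 by 0.51, and Cxcl2 fell by 1.48, Tnf by 0.74 and Vegfa by 0.37, the last not called with the mean of its probe sets (limma adjusted p = 0.16).

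Heat shock proteins and chaperones (23 listed, 20 measured) showed 1 rise, Hmox1 by 0.70 (limma adjusted p = 0.00154), and 1 fall, Dnajb4 by 0.79, in the LSEC fraction of 3DHLK against 3DHL (3.58% and 3.89% of all genes). In 3DHLK 4 were higher and 10 lower in the LSEC fraction than in hepatocytes (34.7% and 25.7% of all genes), and in 3DHL 1 was higher and 11 lower (18.5% and 21.9%). The KC fraction had 6 higher and 1 lower than the LSEC fraction (5.35% and 9.73%), with Hspa1a at 2.15 (adjusted p = 1.67e-08) and Hmox1 at 1.57.

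Genes with the most similar profile to the members were found by Pearson r over the 23 arrays. For the mean of the 10 members, each centred on its own mean, these were Dusp19 (0.90), Tma7 (0.89), Rab5a (0.89), Mapk15 (0.88) and Borcs7 (0.88). For Fos alone they were Cela1 (0.79), Dmbt1 (0.77) and Pik3c2g (0.74), and for Egr1 Cers2, Apoc1 and Xbp1 (0.93 each). The nearest genes to Fos were less alike than those to Egr1. Among the members without KC monolayers (20 arrays), r was 0.93 for Junb and Ier2 and 0.91 for Jund and Atf3, and over all 23 arrays it was 0.93 for Jun and Ier3. These values are a description over arrays that share groups and 1 normalization.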

How the data were processed

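Total RNA was amplified and hybridised to Affymetrix rat arrays, which were assigned to groups from the sample labels. The authors processed the arrays with RMA, of a version that no source used here gives, and deposited log2 expression values per probe set. These values carry no measure of signal over background, and precision is limited by how many arrays there are. Of 31099 probe sets, 20832 name 1 gene, 436 several and 9831 none here, and only the first kind was used. The probe set with the highest mean stood for a gene. A mean per group was fitted with lmFit, contrasts and eBayes of limma 3.58.1 in R 4.3.3, with Benjamini-Hochberg adjustment over 14218 genes and a threshold of 0.05, after testing the code on simulated data. Groups did not overlap where every array of 1 lay above every array of the other. The members and gene lists were chosen with earlier results of these data known. Named are all members, in each list up to 3 largest called rises and falls per comparison (fewer in the text), and the most similar profiles by r. Alternatives were 8 other settings and each of the 23 arrays left out. Motifs were searched in RefSeq promoters. Figures used matplotlib 3.10.9.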

Additional observations from a re-analysis of the deposited data

Results flagged for a closer look

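The change from 3DHL to 3DHLK differed between the LSEC fraction and hepatocytes by 1.85 on the log2 scale for Fos and 2.04 for Fosb. It differed by 0.752 for Jun, 1.41 for Atf3 and 0.763 for Ier2. For Fos the change was 3.30 in the LSEC fraction and 1.45 in hepatocytes, and for Fosb it was 2.47 in the LSEC fraction and 0.43 in hepatocytes. The second Fos probe set changed by 0.44 in the LSEC fraction and -0.21 in hepatocytes, which differed by 0.65. The LSEC fraction changed by 0.05 for Jun, 0.58 for Atf3 and 0.58 for Ier2, and hepatocytes changed by -0.70, -0.83 and -0.18. These values are a description without a test, since LSEC against hepatocyte differences were used to pick the genes. Over the other settings and the fits without 1 array, the value ran from 0.62 to 0.82 for Jun and from 0.68 to 0.85 for Ier2. Stellate cell and fibroblast markers changed between hepatocytes of 3DHLK (10.5) and 3DHL (8.50) and not to that extent between the LSEC fractions (6.54 and 6.62), and their part was not tested.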

How the results depend on the processing

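Leaving out each array in turn gave 2 to 7 called members for the LSEC fractions (5 with all arrays) and 3 to 4 for 3DHLK against 3DHL hepatocytes (3). It gave 2 to 6 for the KC against the LSEC fraction (5) and 2 to 5 for CS against HM (4). For 3DHL hepatocytes against CS it gave 6 in each fit (6). Without overlap, 9 to 10 members were higher in each bead fraction than in hepatocytes of its model (9 each). The count was 7 in each case for the KC fraction against monolayers (7), and 2 to 4 over all bead against all hepatocyte arrays (2). The immediate early list had 27 to 34, 19 to 28, 22 to 29 and 33 to 41 calls in the LSEC fraction against hepatocytes of 3DHLK and of 3DHL, the KC fraction against hepatocytes and the KC fraction against monolayers (31, 24, 27 and 39).

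Without the KC monolayers 5 members were called in 3DHLK against 3DHL hepatocytes instead of 3, Fosl1 and Ier3 being added, while the share of all genes called was 21.4% instead of 11.5%. With only the compared arrays in the fit, the list had 37 calls instead of 24 for the LSEC fraction against hepatocytes of 3DHL, and 59.1% of all genes were called instead of 40.4%. Centring on housekeeping genes left 1 member without overlap between all bead and all hepatocyte arrays instead of 2. The causes were not tested. With the mean of all probe sets, the sign turned in the LSEC fraction against hepatocytes of 3DHL for Zfp36l2 (0.030), Mafg (0.048), Elk4 (0.194) and Jun (-0.012), and in the KC fraction against 3DHLK hepatocytes for Cebpg (0.21). The filter on low values left out Fosb.

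Deviations of same-numbered arrays correlated between -0.31 and 0.16, and the main fit did not pair arrays by replicate number. These correlations do not show whether same-numbered arrays shared a cell isolation. With a replicate block 4 members were called for the LSEC fractions and 3 for 3DHLK against 3DHL hepatocytes. It gave 5 for the KC against the LSEC fraction, 4 for CS against HM and 6 for 3DHL hepatocytes against CS. Egr1 in the LSEC fractions was the member lost (adjusted p = 0.0655 in limma). Junb and Atf3, not called in the LSEC comparison, were called there in a fit to only the arrays compared (adjusted p = 0.0184 and 0.00754), without the KC monolayers (0.0251 and 0.0112), with the filter on low values (0.0488 and 0.0498) and with cyclic loess (0.0413 and 0.0354), and Junb also with the mean of all probe sets (0.0488). Fosb in CS against HM was lost with cyclic loess (adjusted p = 0.0712).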
